A study of Homo sapiens with 8 samples.

Results

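The transcriptome of MOLM-13 cells that had received only the diluent DMSO was described from 4 RNA-sequencing libraries, chosen by their sample titles out of 8 libraries in the series. MOLM-13 is a human acute myeloid leukemia (AML) line in which the KMT2A gene is rearranged. The cells had been grown in RPMI with fetal bovine serum and had been in DMSO for 72 h. The other 4 libraries came from cells given 100 nM of the immunoproteasome inhibitor PR-957 for the same time and were not used here. All values therefore describe a single cell line in culture, and in such bulk libraries fewer cells that express a gene and less of its RNA per cell cannot be told apart. The sources used here do not say whether the 4 replicates came from separate cultures, so their spread may be technical.

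KMT2A codes for a histone methyltransferase that keeps developmental genes active in blood stem cells. When part of it is fused to a partner such as MLLT3, the fusion protein recruits elongation factors to its targets, and the HOXA genes and MEIS1 stay on in cells that would otherwise shut them off. Such leukemias usually resemble cells at the branch between the granulocyte and the monocyte lineage, which make granule proteases early and surface receptors of mature phagocytes late. Levels below are given as transcripts per 1000000 (TPM), that is fragment counts divided by the exon length of the gene and scaled to 1000000 per library, so that genes of different length can be compared. Means are given ± SD over the 4 libraries (n = 4). Spread between replicates is given in counts per 1000000 (CPM).

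The 4 libraries held 16675036, 18247973, 17299743 and 23111223 counted fragments in replicates 1 to 4, so replicate 4 was the deepest. A count of 0 allows a level of up to 0.13 to 0.18 CPM, depending on the library, on the basis of 3 counts, which covers counting error only. Each library had a count for 17776 to 18814 of 38551 genes. Replicate 4 stood apart from replicates 1 to 3. Among 7011 genes of at least 20 CPM, 92 (1.31%) were at least 1.5 times as high in replicate 4 as the mean of the other three, and 0 were lower by that factor. Here and below this limit was set on the mean of all 4 libraries, so some genes passed it only through a high value in replicate 4. Such genes are among the 92, which weights the comparison towards genes high there. When replicates 1 to 3 were compared only with each other, between 0 and 8 genes were higher and between 0 and 1 were lower by the same factor. Several results that replicate 4 moves are given with and without it or for each library, and its own pattern is described at the end.

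Some genes of interest were hard to count, for 2 technical reasons. The annotation used for counting placed 2475 genes on more than 1 sequence or off the primary chromosomes, for example on alternate copies of the major histocompatibility region, and fragments that align to more than 1 place were not counted. Of the 1238 protein-coding genes among them, 53.5% were listed at 0. Another 863 genes shared over 20% of their exon bases with a gene on the same strand, and fragments there were left uncounted. The translation factor gene EIF4A1 was listed at 0 in all 4 libraries and shared 100% of its exon bases with the readthrough gene SENP3-EIF4A1. Both kinds of gene were left out of the counts of expressed list members below, which left 35213 measurable genes. Counting took account of strand. Over 14 pairs in which a gene lay almost wholly opposite a well expressed gene, the median level of the former was 0.687% of the latter. The ratios ran from 0% to 88.7% (SFT2D3 opposite WDR33), and where they were high, RNA of the gene itself and stray reads of its partner could not be told apart.

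Of 17668 measurable protein-coding genes, 10027 (56.8%) had a mean of at least 1 TPM and 3716 (21%) had no count in any library. Their median level was 3.08 TPM. Of 11669 measurable long noncoding RNA genes, 752 reached 1 TPM and 8046 had no count. Over all genes, 11972 reached 1 TPM, 6981 reached 10 TPM, 1169 reached 100 TPM and 124 reached 1000 TPM. The genes of at least 1 TPM held 99.7% of all counted fragments, and 17402 genes were at 0 throughout.

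The transcriptome was dominated by the translation machinery. The 99 most abundant genes carried 50% of the TPM. The 87 ribosomal protein genes made up 35.7 ± 0.872% of the TPM (SD, n = 4) and 18.8 ± 0.606% of the counts, and 37 of them were among the 50 most abundant genes. The most abundant transcript of all was EEF1A1 (chromosome 6, 73515750 to 73521032, hg38), whose product delivers aminoacyl-tRNA to the ribosome. It stood at 22235, 22127, 22211 and 23267 TPM in replicates 1 to 4, and it alone took 3.58 ± 0.0814% of the counts. The ribosomal protein genes RPS12 (14911 ± 868 TPM), RPS2 (14265 ± 252 TPM) and RPL12 (13033 ± 421 TPM) followed. EEF1A1 and many ribosomal protein genes have processed pseudogenes, and a fragment that aligned equally well to such a copy was not counted.

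The 13 mitochondrially encoded genes took 2.19, 2.75, 2.24 and 1.94% of the counts in replicates 1 to 4, so the share was highest in replicate 2. Of these genes 5 were among the 50 most abundant. COX1 and COX3, subunits of cytochrome c oxidase, reached 10665 ± 1585 and 8369 ± 1006 TPM. The 10 genes with the most counts together took 9.56 ± 0.0774% of the counts, a share that differed little between libraries.

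**Figure D1:**
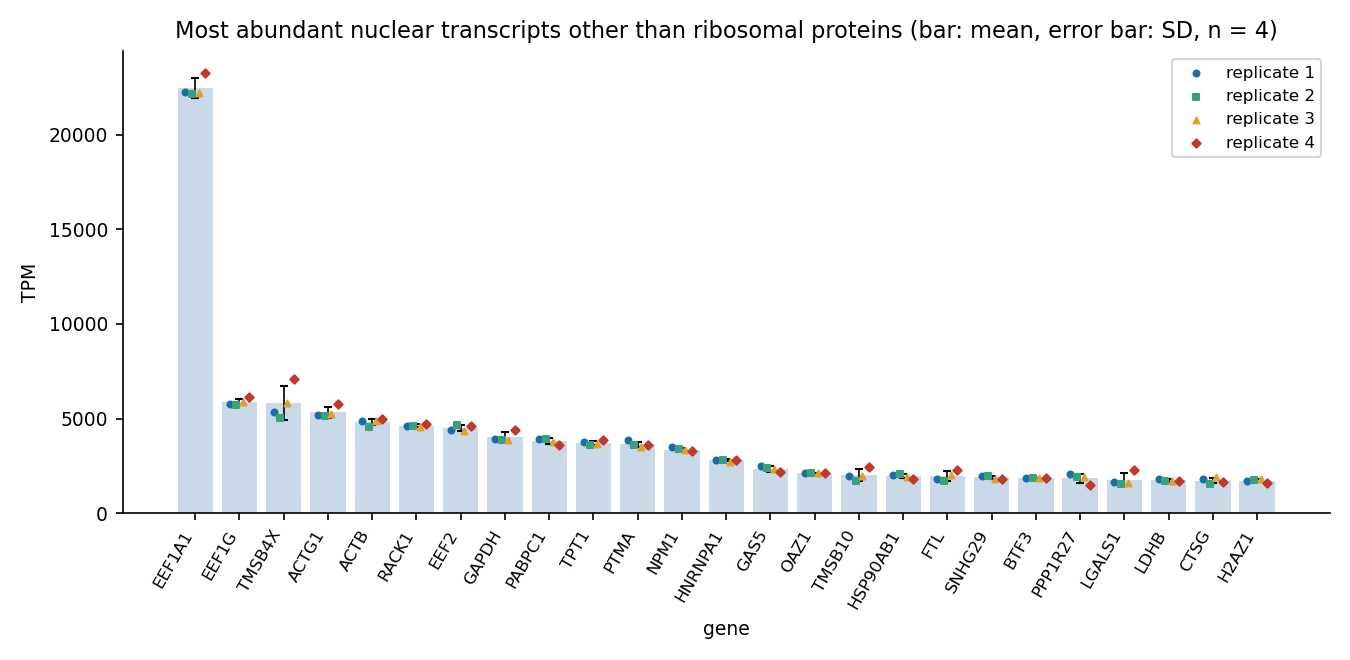
TPM of the 25 most abundant nuclear genes that code for no ribosomal protein, with bars for the mean of 4 DMSO libraries, error bars for the SD and points for each library. EEF1A1 at a mean of 22459.9 TPM stands apart from EEF1G, the next gene, at 5878 TPM, and replicate 4 lies above the other libraries for TMSB4X and LGALS1.

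Outside the ribosomal proteins, abundant transcripts fell into a few groups. Cytoskeletal genes included the actin-binding thymosin TMSB4X, at 5348, 5049.5, 5806 and 7090.1 TPM in replicates 1 to 4, and the actins ACTG1 (5333 ± 306 TPM) and ACTB (4827 ± 179.99 TPM). TMSB4X was highest in replicate 4, and without that library its mean was 5401 ± 381 TPM. Elongation and initiation factors included EEF1G at 5878 ± 179, EEF2 at 4519 ± 155 and EIF3E at 1626 ± 20.5 TPM. NPM1, a nucleolar chaperone that is mutated in another class of AML, stood at 3364 ± 92 TPM. Host genes of small nucleolar RNAs were among the most abundant noncoding transcripts, led by GAS5 (2353 ± 143 TPM) and SNHG29 (1906 ± 87.7 TPM). The granule protease gene CTSG was the only member of the cell type marker lists among the 25 genes plotted.

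Lineage identity was described with 16 lists of marker genes for blood and other cell types. The lists were chosen with earlier results of these data known, so they are no independent check of the label. Markers of the myeloid progenitor and its primary granules were the only list in which every measurable gene was expressed. All 11 measurable genes of that list reached 10 TPM, with a median of 136 TPM. The other 4 of its 15 members have another placement and could not be read. In contrast, 0 of 20 T cell markers reached 1 TPM. Over all measurable protein-coding genes the share was 56.8%. Over the 16 lists 56 entries of measurable genes reached 1 TPM, and without replicate 4 the number was 55.

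CTSG (chromosome 14, 24573518 to 24576250) codes for cathepsin G, a serine protease stored in the azurophil granules of promyelocytes. CD14 (chromosome 5, 140631728 to 140633701) codes for a lipopolysaccharide receptor of mature monocytes and was among the lowest of the myeloid genes. Their promoters are shown because both carry a match to a core motif of SPI1, an ETS factor of the myeloid lineage, while their levels lay far apart. The sequences are RefSeq promoters on GRCh38.p14, from 250 bases before to 50 bases after the start site, for CTSG on the minus strand at chr14:24576201-24576500 and for CD14 on the minus strand at chr5:140633126-140633425. The start site of the CD14 window lies within the span of the gene given above. Capitals mark GAGGAAG on either strand.
CTSG: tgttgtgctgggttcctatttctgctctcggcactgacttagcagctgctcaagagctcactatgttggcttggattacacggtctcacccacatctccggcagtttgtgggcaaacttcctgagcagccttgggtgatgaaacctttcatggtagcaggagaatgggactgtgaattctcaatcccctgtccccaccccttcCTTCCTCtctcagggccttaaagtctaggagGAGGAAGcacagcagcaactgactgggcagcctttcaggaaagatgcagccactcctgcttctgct
CD14: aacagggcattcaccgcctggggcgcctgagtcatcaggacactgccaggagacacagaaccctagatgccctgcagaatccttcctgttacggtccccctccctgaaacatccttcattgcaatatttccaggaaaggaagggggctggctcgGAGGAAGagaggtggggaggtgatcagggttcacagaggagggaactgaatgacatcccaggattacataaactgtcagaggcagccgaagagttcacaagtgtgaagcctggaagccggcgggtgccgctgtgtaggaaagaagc
CTSG held 2 such matches, which began 47 and 16 bases before the start site, and CD14 held 1, which began 96 bases before it. The letters occur in 13.4% of all 27195 promoters of this length in the RefSeq table, so a match is a description and not a binding site.

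CTSG was read at 1792, 1553, 1913 and 1675 TPM in replicates 1 to 4, a mean of 1733 ± 155, which ranked 91 among all genes. CD14 had 3, 0, 3 and 3 counts, a mean of 0.161 TPM. The ranges of these genes did not come near each other in any library.

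The remaining granule genes were ordered as follows. SRGN codes for serglycin, the proteoglycan that packs proteases into granules, and was at 1233, 1183, 1187 and 1056 TPM. PRSS57, a serine protease of neutrophil granules, was at 619.9, 537, 579.7 and 539 TPM. RNASE2, the eosinophil-derived neurotoxin, was at 449.9, 515, 525 and 501 TPM, while the related RNASE3 was at 28.9 ± 3.55 TPM. The ranges of SRGN, PRSS57 and RNASE2 did not overlap. LYZ, which codes for lysozyme, was at 218, 218, 244 and 200.1 TPM and MPO (chromosome 17, 58269855 to 58280935), the myeloperoxidase that defines the myeloid lineage in diagnosis, was at 115, 113, 127 and 109 TPM. LYZ was above MPO in every library. The genes ELANE, PRTN3, AZU1 and CFD, which lie beside each other on chromosome 19, are also placed on an alternate sequence, and their listed levels (3.79, 0.463, 0.383 and 0.61 TPM) could not be read.

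**Figure D2:**
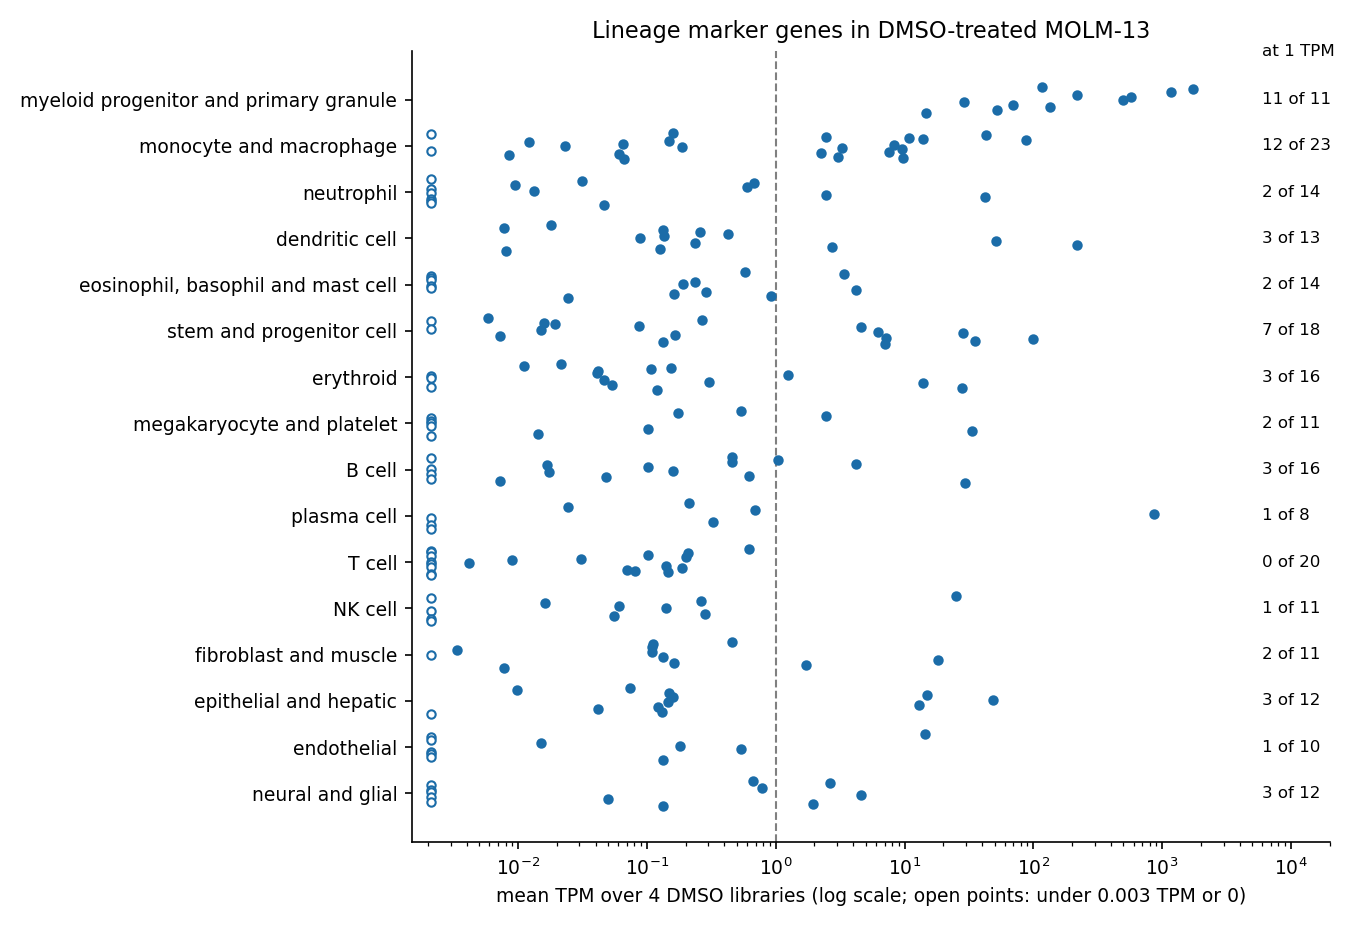
Mean TPM over the 4 DMSO libraries of each measurable gene in 16 cell type marker lists, on a log axis, with open points for genes under 0.003 TPM or at 0 and a dashed line at 1 TPM. The numbers at the right give the genes at or above 1 TPM, from 11 of 11 for the myeloid progenitor list to 0 of 20 for the T cell list.

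Markers of mature monocytes and macrophages were present in part. Of 23 measurable genes, 12 (52.2%) reached 1 TPM, close to the share of all protein-coding genes (56.8%), and 4 reached 10 TPM, with a median of 2.23 TPM. CD68, a lysosomal membrane protein, was highest at 71.9, 75, 85.9 and 118 TPM, and the Fc receptor gene FCGR1A, which has near-identical copies, was at 43.2, 43.2, 46 and 40.7 TPM. CD68 was highest in replicate 4, whereas FCGR1A was lowest there. ITGAX, an integrin gene whose product pairs with that of ITGB2, was at 9.59, 9.81, 10.8 and 25.9 TPM. ITGAM, a related integrin gene, was at 9.32, 9.01, 8.89 and 16.4 TPM. Both were higher in replicate 4 than in every other library, and without it their means were 10.1 ± 0.669 and 9.07 ± 0.223 TPM. The calprotectin genes S100A8 and S100A9 were at 3.29 ± 0.705 and 9.58 ± 1.4 TPM, and the receptor gene CSF1R was at 1.66, 1.94, 2.33 and 3.83 TPM. Genes of the late monocyte were near 0, among them FCN1 (0.186 TPM), VCAN (0.0233 TPM) and S100A12, which had no count.

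Few neutrophil genes were expressed, with 14.3% of the measurable list at 1 TPM, beside 56.8% of all measurable protein-coding genes. Of the list 2 of 14 measurable genes reached 1 TPM, the growth factor receptor gene CSF3R at 39.4, 46.2, 38.8 and 45.5 TPM and the chemokine receptor gene CXCR2 at 2.48 ± 0.235 TPM. Genes of the secondary granules and of mature neutrophils were silent or nearly so. CEACAM8, LCN2, OLFM4 and CRISP3 had no count in any library, and LTF and MMP8 were at 0.0314 and 0.00945 TPM. For dendritic cells 3 of 13 measurable genes reached 1 TPM, of which the transcription factor genes IRF8 (207, 222, 225 and 219 TPM) and BATF3 (52.3, 54.9, 54 and 45.8 TPM) were the highest. The subset markers CLEC9A, XCR1, CD1C and CLEC10A were all under 1 TPM. In the list for eosinophils, basophils and mast cells, TPSAB1 (4.19 ± 1.4 TPM), a tryptase gene with near-identical copies, and PRG2 (3.38 ± 0.658 TPM) passed 1 TPM.

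Stem and progenitor markers were expressed in part, with 7 of 18 genes (38.9%) at 1 TPM or more, below the 56.8% of all measurable protein-coding genes. LMO2, a bridging factor of stem cell complexes, was at 96.8, 96.2, 91.7 and 112 TPM, the cell cycle kinase gene CDK6 at 32.8, 35.3, 35.7 and 36.6 TPM and the homeobox gene MEIS1 at 27, 25.9, 30.02 and 30.6 TPM. The surface markers by which stem cells are sorted were close to 0. CD34 (chromosome 1, 207880972 to 207911125) had 0, 0, 0 and 2 counts in replicates 1 to 4, PROM1 had none, and KIT and THY1 were at 0.267 and 0.0159 TPM. The stem cell transcription factor genes MECOM and HLF were at 0.0874 and 0.0193 TPM, while GATA2 was at 4.76, 4.46, 3.74 and 5.51 TPM.

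Lineages outside the myeloid line were silent but for a few genes. From 0% to 18.8% of each list reached 1 TPM, beside 56.8% of all measurable protein-coding genes. Among erythroid genes 3 of 16 reached 1 TPM, which were the transferrin receptor gene TFRC (27.9 ± 2.84 TPM), EPOR (14 ± 2.06 TPM) and HBG2 (1.25 ± 0.48 TPM, with a near-identical copy). HBB, the beta chain of adult haemoglobin, was at 0.153 TPM. Megakaryocyte genes gave 2 of 11, led by the transcription factor gene NFE2 at 33.5 ± 1.35 TPM, and PF4 and PPBP had no count. In the B cell list 3 of 16 genes passed, and 2 did so without replicate 4. They included the scaffold gene BANK1 at 29.1, 30.8, 28.6 and 29 TPM and PAX5, the factor that commits cells to the B lineage, at 4.63, 4.04, 4 and 3.99 TPM. The spread of both was small against their level, although the B cell surface gene MS4A1 had no count. In the plasma cell list XBP1, a factor of the unfolded protein response, was the single gene over 1 TPM, at 897, 822, 840.5 and 877 TPM. Of the T cell genes, CD3D was the highest at 0.153, 0.425, 0.585 and 1.34 TPM, with only replicate 4 over 1 TPM, and CD3E, CD3G and LCK had no count. NCAM1, the adhesion molecule CD56 that some AML cells carry, was the single gene of the NK cell list over 1 TPM, at 25.4, 27.8, 22.7 and 25.4 TPM.

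Lists for solid tissues were described in the same way. 2 of 11 fibroblast and muscle genes, 3 of 12 epithelial and hepatic genes, 1 of 10 endothelial genes and 3 of 12 neural and glial genes reached 1 TPM. These shares of 10% to 25% lay below the 56.8% of all measurable protein-coding genes. The keratin genes KRT18 (52.5, 44.7, 47.5 and 50.1 TPM) and KRT8 (14.1, 14, 13.7 and 18.6 TPM), the mucin gene MUC1 (12.9 ± 2.07 TPM), the smooth muscle actin gene ACTA2 (18.3 ± 0.925 TPM) and PECAM1 (14.4 ± 3.06 TPM), an adhesion gene that leukocytes also express, reached 10 TPM. The highest neural gene was OLIG2, a transcription factor gene of the oligodendrocyte lineage, at 4.57 ± 0.728 TPM. COL1A1 was at 0.456 ± 0.192 TPM, EPCAM at 0.0734 ± 0.0868 TPM, and CDH5 and GFAP had no count. Each of these lists thus held both expressed and silent genes.

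Of 48 haematopoietic transcription factor genes, 39 reached 1 TPM and 31 reached 10 TPM, with a median of 17.8 TPM, beside 56.8% at 1 TPM and a median of 3.08 TPM over all protein-coding genes. CEBPA (chromosome 19, 33299934 to 33302564), the factor that directs granulocyte and monocyte commitment, was the highest at 474, 472, 445 and 444 TPM. Its relatives CEBPG (122 ± 3.84 TPM), CEBPB (62.8 ± 9.41 TPM), CEBPD (45.4 ± 9.34 TPM) and CEBPE (5.91 ± 1.26 TPM) followed at lower levels, and CEBPE, which drives late granulocyte genes, was the lowest of the family measured. The oncogene MYC was at 391, 404, 363 and 341 TPM, and MYB, a factor that keeps progenitors dividing, was at 226, 237, 216 and 204 TPM. Both were lowest in replicate 4, and MYC was above MYB in every library. SPI1 (chromosome 11, 47354859 to 47395640), the ETS factor PU.1, was at 112, 105, 111 and 109.99 TPM, and GFI1, a repressor of granulocyte precursors, was at 62.2, 64.4, 66.5 and 65.5 TPM. RUNX1 stood at 30.2 ± 2.5, FLI1 at 53.2 ± 3.22 and ZEB2 at 35 ± 1.75 TPM. Among the factors under 1 TPM were some of the red cell and platelet branch, GATA1 (0.163 TPM), TAL1 (0.0161 TPM), GFI1B (0.0181 TPM) and KLF1 (0.304 TPM), whereas NFE2 and GATA2 of that branch were expressed at the levels given above. ERG (0.132 TPM), GATA3 (0.0803 TPM) and EBF1 (0.0168 TPM) were under 1 TPM as well.

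The HOX clusters differed, most sharply between HOXA and HOXD. HOX genes code for homeodomain factors that set position in the embryo, and the HOXA genes are known targets of KMT2A fusions. All 10 measurable HOXA genes reached 1 TPM, against 1 of 10 HOXB genes, 3 of 6 HOXC genes and 0 of 9 HOXD genes. HOXA10 (chromosome 7, 27170605 to 27179861) was the highest at 96.4, 93.2, 93.4 and 102 TPM in replicates 1 to 4. HOXA11 was at 32.8, 35.1, 35.1 and 42.3 TPM and HOXA13 at 29.96, 32.8, 32.1 and 33.2 TPM, and their ranges overlapped. HOXA5 (20.1 ± 2.18 TPM) and HOXA7 (13.7 ± 1.65 TPM) came next, and HOXA2, HOXA3 and HOXA4 lay between 1.9 and 5.49 TPM. HOXA9 was listed at 15.8, 15.1, 12.8 and 16 TPM, but it shared 72.4% of its exon bases with the readthrough gene HOXA10-HOXA9, so its listed level leaves out the shared part.

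**Figure D3:**
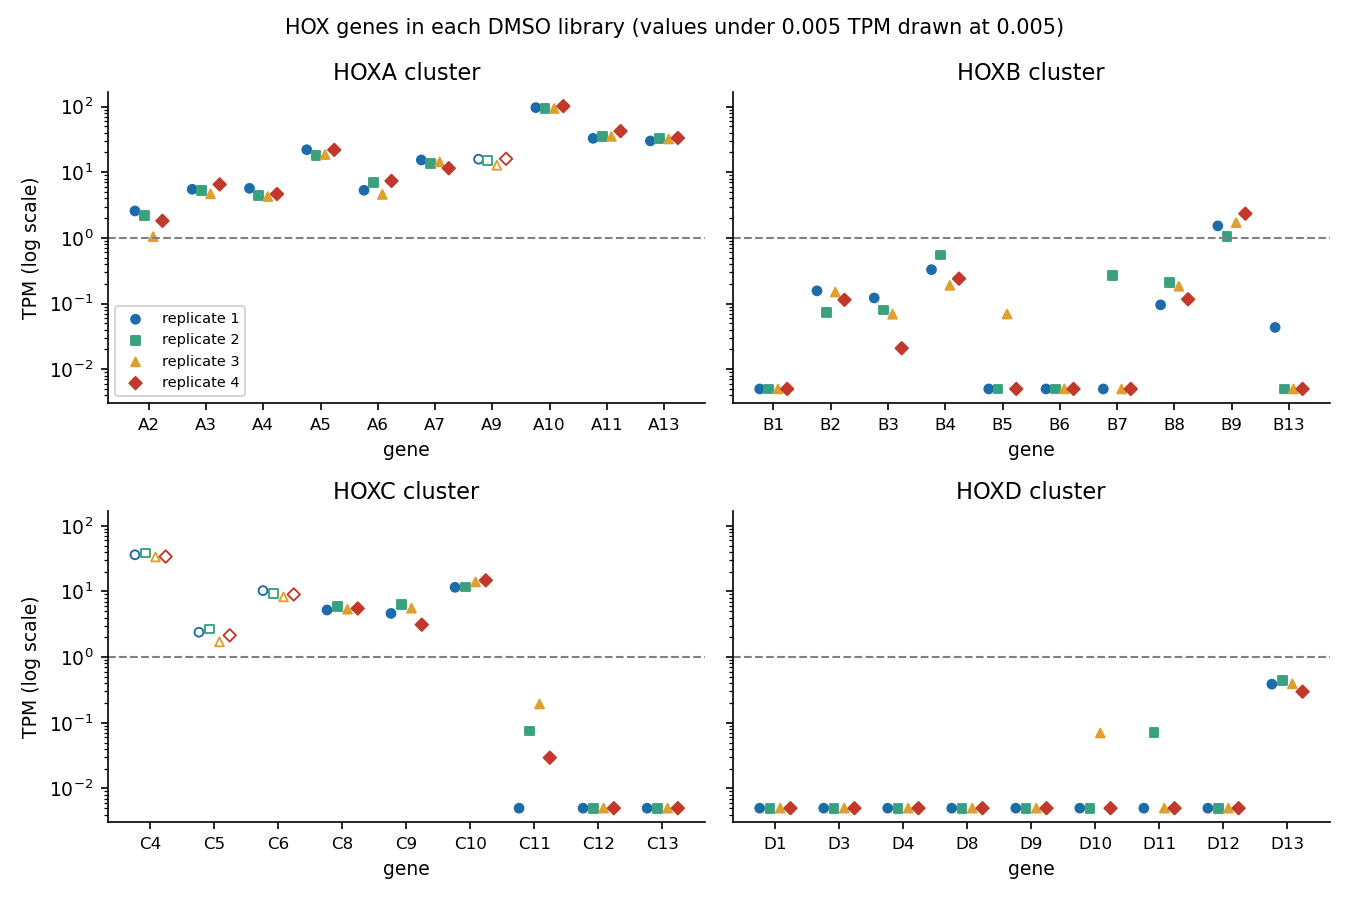
TPM of the HOX genes in each of the 4 DMSO libraries, on a log axis with a dashed line at 1 TPM, with open symbols for genes that share over 20% of their exon bases with a neighbour. The measurable HOXA genes shown lie above the line in every library, and the HOXD genes lie below it in every library.

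In the HOXC cluster, HOXC10 (11.6, 11.7, 14 and 14.8 TPM), HOXC8 (5.49 ± 0.272 TPM) and HOXC9 (4.92 ± 1.39 TPM) were expressed, and HOXC12 and HOXC13 had no count. HOXC4, HOXC5 and HOXC6 shared between 22.4% and 24.6% of their exon bases, and were listed at 35.6, 2.23 and 9.21 TPM. These levels leave out the shared part and all lie above 1 TPM, so the count of measurable HOXC genes given above leaves out expressed ones. The highest HOXB gene was HOXB9 at 1.52, 1.04, 1.71 and 2.34 TPM and the highest HOXD gene was HOXD13 at 0.387, 0.435, 0.391 and 0.298 TPM. No HOXA gene was lower than HOXD13 in any library. Of the noncoding genes of these clusters, HOXA11-AS was at 24.8 ± 3.35, HOTAIRM1 at 6.06 ± 1.36 and HOTTIP at 3.51 ± 0.533 TPM, while HOTAIR in the HOXC cluster was at 0.0663 TPM.

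Of the cofactors of HOX proteins, PBX3 was at 74.6, 75.8, 77.1 and 80.1 TPM and MEIS1 at the level given above. In the list of KMT2A complex members and cofactors 25 of 27 measurable genes (92.6%) reached 1 TPM, beside 56.8% of all protein-coding genes. PSIP1, which tethers menin and KMT2A to chromatin, was the highest at 102, 102, 100.5 and 102 TPM. MEN1, the gene of menin, was at 25.4, 28.1, 23.6 and 22.6 TPM, and the methyltransferase gene DOT1L was at 41.2, 43.6, 37 and 42.5 TPM. KMT2A itself was at 6.1, 6.26, 6.39 and 7.03 TPM and MLLT3 at 6.46, 5.86, 6 and 6.76 TPM. Both counts can include fragments from a fusion transcript, which a count per gene cannot separate from the intact gene. BASP1, a membrane protein gene also known as a transcriptional repressor, was at 23.2, 19.1, 24.5 and 32.1 TPM and was highest in replicate 4, with a mean of 22.2 ± 2.83 TPM without it.

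Receptors were led by FLT3. FLT3 (chromosome 13, 28003274 to 28100587) codes for a tyrosine kinase receptor of progenitors that is often mutated in AML, and it was read at 173, 177, 165 and 182 TPM. It was the highest of 44 measurable growth factor and cytokine receptor genes, of which 33 (75%) reached 1 TPM, beside 56.8% of all protein-coding genes. TNFRSF1A, the main receptor for tumour necrosis factor, followed at 85.7, 84.3, 90.4 and 90.7 TPM and the chemokine receptor gene CXCR4 at 57.2, 53.6, 63 and 77.6 TPM. FLT3 exceeded both in every library. Other receptor tyrosine kinase genes were far lower, with CSF1R as above, AXL at 2.38 ± 1.03, KIT at 0.267 ± 0.136 and ERBB2 at 0.552 ± 0.0677 TPM, and EGFR and PDGFRA without a count. IL3RA and CSF2RA, which lie in the region shared by both sex chromosomes, are placed on both and were listed at 0, so nothing can be read of them. Their partner chain CSF2RB was at 4.33 ± 0.318 TPM.

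**Figure D4:**
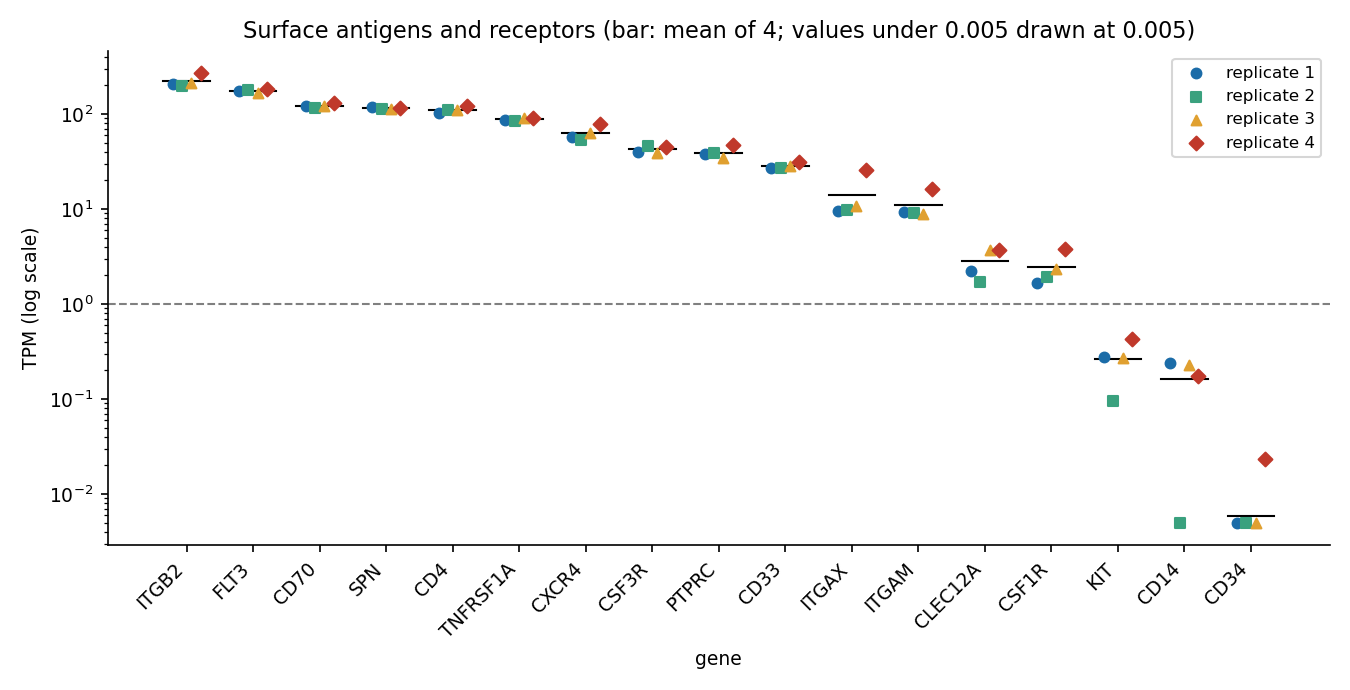
TPM of 17 genes of surface antigens and receptors in each DMSO library, on a log axis with a dashed line at 1 TPM, with black bars for the mean of 4. The genes run from ITGB2 at a mean of 222 TPM to CD34 at 0.00587 TPM, and replicate 4 stands above the other libraries for ITGAX and ITGAM.

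Among surface antigens that are used to type leukemias, 28 of 35 measurable genes (80%) reached 1 TPM, beside 56.8% of all protein-coding genes. ITGB2, the common chain of the leukocyte integrins, was the highest at 209, 196, 214 and 269 TPM. CD70, a ligand of the tumour necrosis factor family, was at 120.1, 116, 120.2 and 129 TPM and SPN, the sialophorin CD43, was at 119, 113, 112 and 115 TPM. CD4, which monocytic cells share with helper T cells, was at 101, 109.6, 109 and 122 TPM. CD70 was above the other two in every library, although the ranges overlapped, and SPN and CD4 kept no order. CD33, a standard myeloid antigen, was at 27.2, 27.1, 28.1 and 31.2 TPM. CD38 stood at 6.21 ± 0.589, CLEC12A at 2.85 ± 1.04 and ANPEP, the antigen CD13, at 8.5, 8.5, 15.7 and 16.3 TPM. ANPEP was higher in replicates 3 and 4 than in replicates 1 and 2. HAVCR2 was at 0.575 TPM and MME, an antigen of immature B cells, at 0.00289 TPM. PTPRC, the pan-leukocyte antigen CD45, was at 37.6, 38.7, 34.4 and 46.6 TPM but has a second placement.

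The study concerns the proteasome, so the levels of its genes in DMSO-treated cells were examined. Of the standard catalytic subunits, PSMB5 was at 97.4, 93.8, 91.3 and 95.5 TPM. PSMB6 was at 152, 158, 153 and 140.5 TPM, and PSMB7 was at 233, 232, 239.8 and 222 TPM. PSMB7 was above PSMB6 and PSMB6 above PSMB5 in every library. Of the immunoproteasome subunits, which replace these in immune cells, PSMB10 was at 216, 182, 198 and 168 TPM. PSMB8 and PSMB9 lie in the major histocompatibility region and are also placed on its alternate copies. They were listed at 1.48 and 0 TPM, values from which no level can be read. Of 37 measurable structural, regulatory and assembly genes, 36 (97.3%) reached 1 TPM, beside 56.8% of all measurable protein-coding genes. Of the same genes 35 reached 10 TPM, and their median was 101 TPM, beside 3.08 TPM. PSMB4 (597 ± 26.2 TPM), PSMB1 (538 ± 27.1 TPM) and the ubiquitin receptor gene PSMD4 (435 ± 12.8 TPM) were the highest, and the testis form PSMA8 had no count.

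Protein quality control was well represented. All 20 measurable genes of that list reached 1 TPM, beside 56.8% of all measurable protein-coding genes, and all 20 reached 10 TPM. RPS27A, which codes for ubiquitin fused to a ribosomal protein, was at 3627 ± 165 TPM, and the chaperone gene HSP90AB1 was at 2033, 2054, 1945 and 1819 TPM. HSPA8, a constitutive chaperone gene, was at 994, 1091, 889.7 and 722 TPM. Both chaperones were lowest in replicate 4. DDIT3, a target of the integrated stress response, was at 149 ± 15.5 TPM and the chaperone cofactor gene BAG3, which heat shock induces, was at 12.5 ± 2.25 TPM. The inducible chaperone genes HSPA1A and HSPA1B are near-identical and placed more than once, so their levels could not be read.

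In the BCL2 family 15 of 16 genes reached 1 TPM, beside 56.8% of all measurable protein-coding genes. The killing effector BAX was the highest at 145, 149, 146 and 132 TPM. Of the guardians, MCL1 was at 110.1, 116, 105 and 126, BCL2 at 23.5, 28.6, 25 and 27.3 and BCL2L1 at 14.7, 14.9, 19.8 and 17.3 TPM, so MCL1 was highest in every library. BIK, a sensor of the family, was at 90.3, 82.5, 76.7 and 56.5 TPM and was lowest in replicate 4.

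Most proliferation genes were expressed. Of 37 measurable genes, 36 (97.3%) reached 1 TPM, beside 56.8% of all measurable protein-coding genes, and 33 reached 10 TPM. PCNA, the sliding clamp of DNA replication, was at 389.8, 404, 419 and 342 TPM, CDK4 at 344, 338, 361 and 306 TPM and MKI67 at 31.7, 35.3, 34.3 and 40.2 TPM. Among D cyclins CCND3 was at 134 ± 9.27, CCND2 at 57.9 ± 4.08 and CCND1 at 7.37 ± 0.96 TPM. Of the inhibitors, CDKN1A was at 145 ± 10.4 and CDKN2C at 139.99 ± 6.44 TPM. CDKN2A was at 3.03, 3.25, 6.56 and 5.46 TPM and the neighbouring CDKN2B at 0.204 ± 0.0964 TPM. Glycolytic genes were led by GAPDH (3915, 3885, 3868 and 4425 TPM), LDHB (1742 ± 65.6 TPM) and ENO1 (1227 ± 132 TPM), of which GAPDH and ENO1 were highest in replicate 4. ALDOA was listed at 6.72 TPM, but 35.7% of its exon bases were shared with another gene.

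The spread among the 4 replicates was examined over 7011 genes with a mean of at least 20 CPM. The median coefficient of variation (CV, the SD as a percent of the mean) was 6.16%, where counting error alone gives 3.11%. It was 4.79% over the same genes without replicate 4. A CV over 20% was found for 138 genes (1.97%), and for 17 genes without replicate 4. The biological coefficient of variation that edgeR estimates for all genes together was 9.8%, and 5.43% without replicate 4. The root mean square difference of log2 CPM between replicates was 0.12 to 0.14 among replicates 1 to 3, and 0.20 to 0.22 for the pairs with replicate 4. Every pair differed by more than counting error (mean chi-square per gene of at least 4.26, where 1 is the value of pure counting), so no library was a copy of another.

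VHL was the steadiest gene. It codes for the ubiquitin ligase subunit that marks hypoxia-inducible factor for decay and stood at 145, 144, 145 and 145 CPM, a CV of 0.22%. SHARPIN, a subunit of a linear ubiquitin ligase, stood at 55.9, 55.6, 55.7 and 55.4 CPM and the kinase gene CSNK1D at 112, 113, 113 and 112 CPM. These spreads are smaller than counting error. FLT3 and CEBPA, with CVs of 3.33% and 3.52%, were among the steadier genes of lineage.

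The 10 genes with the highest CV were all highest in replicate 4. The creatine transporter gene SLC6A8 (chromosome X, 153687926 to 153696593) was at 7.93, 7, 8.77 and 59 TPM in replicates 1 to 4, and in CPM replicate 4 was 7.41 times the mean of the other three. The glycolytic regulator gene PFKFB4 was at 4.63, 4.09, 5.67 and 18.6 TPM, a ratio of 3.85. ALDOC, a fructose-bisphosphate aldolase, was at 36.6, 29.9, 37.7 and 132 TPM, a ratio of 3.76. In these genes replicates 1 to 3 lay close together and did not reach replicate 4. NDRG1 (2.96 times), TBC1D30 (2.88 times), NCF1 (2.78 times, with near-identical copies), CD109 (2.71 times), ACSS2 (2.63 times), LSP1 (2.6 times) and ITGAX (2.55 times) completed the 10. Of these 10, SLC6A8, PFKFB4 and NCF1 were under 20 CPM in each of replicates 1 to 3, and LSP1 was at 14.5, 11.8 and 20.3 CPM. They passed the 20 CPM limit only through replicate 4. EGR1, an immediate early gene below the 20 CPM limit, was at 10.9, 7.23, 8.6 and 17.4 TPM and also highest there.

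Several of these genes are known to be induced by low oxygen. A list of hypoxia and glycolysis genes and a list of sterol synthesis genes were written after this was seen, and are no independent evidence. In the hypoxia list all 22 of 22 members of at least 20 CPM were highest in replicate 4, with a median deviation of 0.51 on the log2 scale from the other three, and 9 were at least 1.5 times as high. In the sterol list 21 of 22 were highest there, with a median of 0.69, and 14 were at least 1.5 times as high, against 1.31% of all genes of at least 20 CPM. Over all genes of at least 20 CPM 2096 (29.9%) were highest in replicate 4, with a median of -0.01. HMGCS1, an early enzyme of cholesterol synthesis, was at 61.1, 60.6, 58.1 and 150.04 TPM and the glucose transporter gene SLC2A3 at 61.4, 59.2, 63.2 and 152 TPM. VIM, an intermediate filament gene, was at 386, 386, 396 and 764 TPM. These 3 genes were chosen after their values were seen, and in each replicates 1 to 3 lay far below replicate 4.

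The promoter of ALDOC (RefSeq, GRCh38.p14, minus strand, chr17:28576846-28577145) is shown because ALDOC had the third highest CV and its promoter holds the core letters of the element that hypoxia-inducible factors bind. Capitals mark ACGTG on either strand.
ALDOC: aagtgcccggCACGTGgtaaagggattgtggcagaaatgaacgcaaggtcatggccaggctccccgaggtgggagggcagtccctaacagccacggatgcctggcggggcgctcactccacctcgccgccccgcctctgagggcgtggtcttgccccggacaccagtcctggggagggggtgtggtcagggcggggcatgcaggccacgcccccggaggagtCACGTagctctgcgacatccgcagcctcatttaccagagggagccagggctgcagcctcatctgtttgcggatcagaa
The letters occur at 2 separate places, and at the first they match on both strands. ACGTG was found in 21.6% of all 27195 promoters. The ALDOC promoter also holds 1 match to a sterol response element, which is not marked in the sequence. That element was found in 1.15% of all promoters. Whether either kind of match plays a part in the level of ALDOC in replicate 4 was not tested.

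**Figure D5:**
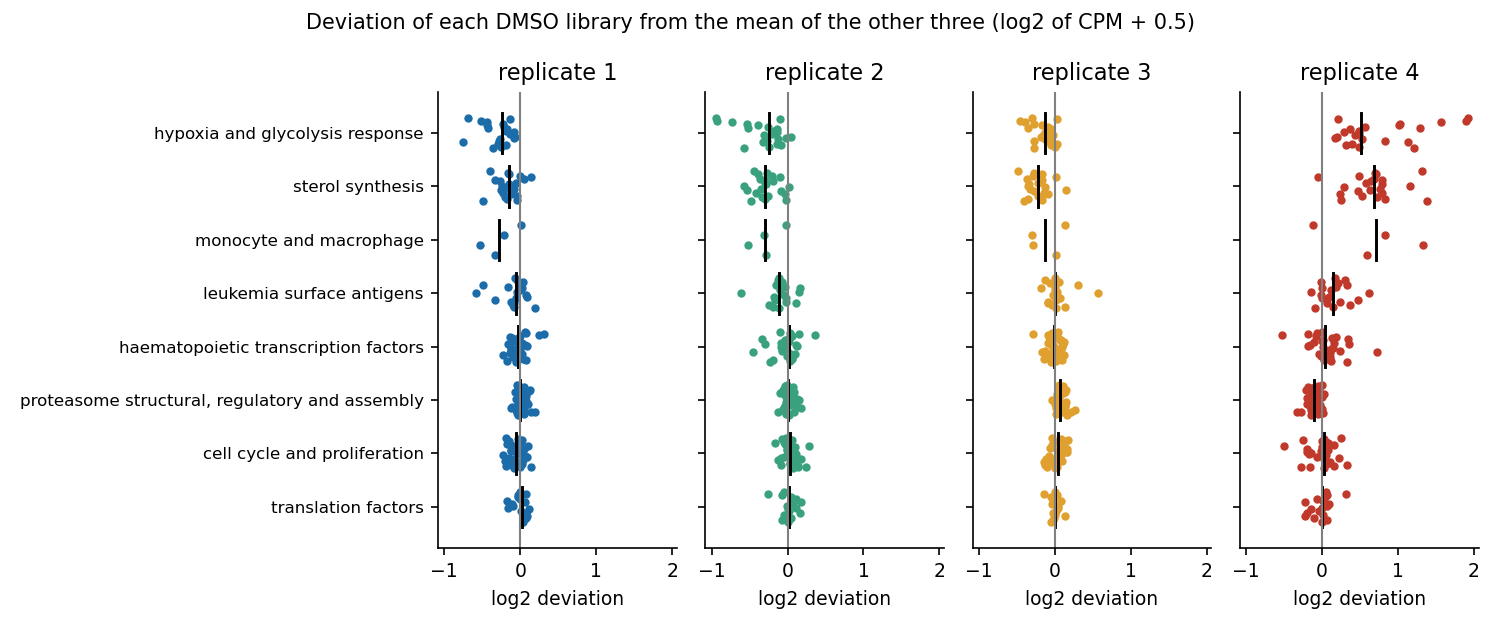
Deviation of each gene of at least 20 CPM in a DMSO library from the mean of the other three, as a log2 difference of CPM plus a pseudocount of 0.5, for 8 gene lists, with black bars for the median. Only in the panel of replicate 4 do the hypoxia and sterol lists lie to the right of 0, with medians of 0.51 and 0.69.

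Lists that describe the identity of the cells deviated to different degrees. In replicate 4 the median deviation was -0.07 for the granule genes, 0.03 for the transcription factors and 0.03 for the KMT2A complex list. For the 4 monocyte genes of at least 20 CPM it was 0.71, and 3 of them were at least 1.5 times as high in replicate 4, against 1.31% of all genes of that level. ITGAM, 1 of these 3, was at 20.5, 19.5 and 19.7 CPM in replicates 1 to 3 and passed the limit only through replicate 4. The 4 HOXA genes and the 4 stem and progenitor genes of that level were all highest there, with medians of 0.19 and 0.19. So were 15 of 20 receptor genes (median 0.13) and 11 of 19 surface antigen genes (median 0.14). Over all genes of at least 20 CPM, 29.9% were highest in replicate 4, with a median deviation of -0.01. PECAM1, the single endothelial gene of that level, deviated by 0.54. Proteasome genes lay slightly below the other libraries there, with a median of -0.10 and 26 of 36 genes lowest in replicate 4, against 35.9% of all genes of at least 20 CPM. Depth moved with replicate 4 as well, since it was the deepest. Its median deviation was -0.06 for genes with under 2000 exon bases and 0.02 for those with over 4000. A length trend was not particular to it. Replicate 2 had medians of -0.04 and 0.05, while replicate 1 had 0.03 and -0.04 and replicate 3 had 0.05 and -0.03. The part of depth and length in the result was not tested.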

How the data were processed

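RNA from MOLM-13 cells was sequenced by the authors, and the deposited table holds a fragment count and a Length value for each gene in 8 libraries, of which the 4 DMSO libraries were used. Per the paper's methods, TruSeq libraries were read as 150 bp pairs on a NovaSeq, aligned with STAR to hg38 and counted with featureCounts. Per the file headers, counting used NCBI RefSeq genes, fragments with both ends mapped and the reverse strand. The submitters' processing notes name Trimmomatic 0.39, STAR 2.7.10a and featureCounts 2.0.1. The count of a gene lacks fragments with more than 1 alignment and those shared with a gene on the same strand. A deposited file of the authors' own comparison was not used. It holds their fold changes and p-values.

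Groups came from the sample titles. CPM was computed from library totals (16675036 to 23111223 counts), and TPM from counts divided by the Length column. TPM is a share of each library and gives no absolute amount per cell. Counting error limits genes of few counts. A gene was called expressed at a mean of at least 1 TPM. Genes with another placement (second sequence or non-primary) and genes with over 20% shared exon bases were not counted among list members. Replicate spread was computed on genes of at least 20 CPM, with a pseudocount of 0.5 CPM on the log2 scale. The common dispersion was estimated in edgeR 4.0.16 (R 4.3.3) with TMM factors (0.987 to 1.01), checked on simulated data, and all else in Python 3.11.15 with numpy 2.4.6 and pandas 2.3.3. Biotypes were matched from the RefSeq gene table for 35662 of 38551 genes, and promoters from the RefSeq table on GRCh38.p14 for 22861 genes. Of 38557 table rows, 6 without values were left out.

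The libraries are described without a test. Named genes are a set of anchor genes, the 20 most abundant, the 4 highest of each list, and the 10 most and 10 least variable. Other list members, and HMGCS1, NPM1, P4HB and PPP1R27, were chosen after their values were seen. A few members of the naming rule are not reported here. The members and all lists were chosen with earlier results of these data known. Alternatives were other detection thresholds, lengths, factors and CPM limits, mitochondrial genes left out, and each replicate left out in turn.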

Additional observations from a re-analysis of the deposited data

Results flagged for a closer look

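For 201 genes whose levels are given and 8 measures of the libraries, the highest or lowest of the 4 libraries was compared with the others by Dixon's ratio at its 95% critical value, which chance alone passes in about 1 of 20 groups. 32 genes passed, and in 25 of them replicate 4 was the high library. The rule was applied to genes of which several were chosen for their spread, so these counts give no rate for the transcriptome.

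Replicate 4 was the high library at 59 TPM for SLC6A8, 18.6 for PFKFB4, 132 for ALDOC, 69.2 for NDRG1, 152 for SLC2A3, 1425 for ENO1, 4425 for GAPDH, 150.04 for HMGCS1 and 45.3 for ACSS2. The same held for ITGAX at 25.9 TPM, ITGAM at 16.4, NCF1 at 65.9, CD109 at 13.5 and CSF2RB at 4.8. The interferon-stimulated genes IFIT2, IFIT3 and BST2 stood at 34.3, 27.9 and 249 TPM there, and the histone genes H1-2 and H2AC6 at 30.5 and 38.3 TPM. VIM (764 TPM), TBC1D30 (36.1 TPM), KRT8 (18.6 TPM), ACTG1 (5786 TPM) and EEF1A1 (23267 TPM) were also highest in replicate 4, the last 2 by small margins. CD38 was lowest there at 5.34 TPM. The number of genes with a count was highest in replicate 4 as well, at 18814, beside its greater depth.

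In the other libraries, PAX5 stood out in replicate 1 at 4.63 TPM and PSIP1 was lowest in replicate 3 at 100.5 TPM, a small margin beside a very narrow spread. ELANE, which has another placement, stood out in replicate 2 at 4.23 TPM. The share of the 10 most abundant genes was lowest in replicate 2 at 9.44%, as was the TPM share of ribosomal protein genes at 34.4%. The remaining cases rest on 1 to 9 fragments over the 4 libraries, with GATA3 at 0.255, MMP8 at 0.0378 and MME at 0.0116 TPM in replicate 2 and CD34 at 0.0235 TPM in replicate 4.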

How the results depend on the processing

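The values that describe spread depended most on the choices. The median CV was 6.16% and became 8.08% with genes of at least 1 CPM and 5.1% with genes of at least 100 CPM. Leaving out a replicate, with the 20 CPM limit set anew on the libraries kept, gave 4.78% to 6.25%, lowest without replicate 4. The mean root mean square log2 difference between pairs was 0.167, 0.272 with genes of at least 1 CPM, and 0.125 to 0.186 over the replicates left out. The biological coefficient of variation ranged from 5.43 to 11.2%, lowest without replicate 4. The number of genes at or above the detection limit was 8809 at 5 TPM and 16199 at 0.1 TPM, within 1.5 times the value at 1 TPM, and leaving out a replicate gave 11877 to 12014. Counts of genes at 0, of lineage markers and of named genes expressed also stayed within 1.5 times, and the library shares within 1 SD, under the alternatives run for each. For the share of the mitochondrially encoded genes, leaving out a replicate was the only alternative run. Of 277 genes named by the rule or described, the mean TPM of 6 moved by over 1 SD with exon length taken from the first primary chromosome, and all 6 have another placement. Leaving out the mitochondrially encoded genes moved 76, since it rescales every TPM. TMM and RLE factors moved the mean CPM of 0 genes by over 1 SD. These factors lay between 0.985 and 1.01 and could hardly move a mean of 4 libraries, so this result says little. A mean of 4 cannot move by over 1 SD when 1 library is left out, so that alternative says little of the levels or of the library shares. No paired analysis was possible because no groups were compared and no result comes from a test. Genes of few counts and genes with another placement set the limits of these libraries, and a single line with 4 replicates of unstated origin gives no spread between patients or cultures.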

Other observations

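Noncoding transcripts were abundant where they host small nucleolar RNAs. Of 25 measurable noncoding genes on the list, 20 (80%) reached 1 TPM, beside 752 of 11669 measurable long noncoding RNA genes. After GAS5 and SNHG29, SNHG6 stood at 1639 ± 68 TPM and SNHG5 at 1414 ± 134 TPM (SD, n = 4), whereas MALAT1, a nuclear transcript, was at 246, 224, 173 and 201 TPM in replicates 1 to 4. Replication-dependent histone genes, whose main transcripts lack a poly(A) tail, were low in cells that expressed proliferation genes. Of 16 measurable genes 10 (62.5%) reached 1 TPM, beside 56.8% of all measurable protein-coding genes. Their median was 1.38 TPM, beside 3.08 TPM, and H4C3 was the highest at 21.3 ± 1.19 TPM. H1-2 and H2AC6, of which polyadenylated forms are known, were highest in replicate 4. H1-2 was at 12.9, 9.66, 11.2 and 30.5 TPM and H2AC6 was at 6.5, 8.71, 8.54 and 38.3 TPM.

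Interferon-stimulated genes were present without a uniform level. 12 of 17 measurable genes (70.6%) reached 1 TPM, beside 56.8% of all protein-coding genes. In replicates 1 to 4 taken singly the number was 11, 11, 11 and 13. They were led by the restriction factor genes IFITM2 (226, 235, 274 and 273 TPM) and BST2 (211, 204, 205 and 249 TPM). IFIT2 and IFIT3 code for proteins that act on viral RNA. IFIT2 was at 1.47, 1.4, 1.56 and 34.3 TPM, and IFIT3 was at 1.96, 2.1, 2.17 and 27.9 TPM. Both are under the 20 CPM mean at which replicates were compared, and were chosen after their values were seen. Of the 1333 fragments counted for IFIT2, 1214 were in replicate 4. Of cytokine and secreted factor genes 10 of 20 (50%) reached 1 TPM, close to the share of all protein-coding genes. VEGFA was at 269, 289.6, 251 and 312, TGFB1 at 91.9, 96.9, 107 and 142 and IL18 at 62.6, 57.7, 60.4 and 61.4 TPM. Among stress genes the highest were the mTOR inhibitor gene DDIT4 (1248, 1369, 1462 and 1803 TPM) and the metallothionein gene MT2A (439, 300.2, 451 and 678 TPM).

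PPP1R27, which codes for a small phosphatase regulator and was chosen after its values were seen, was listed among the most abundant nuclear genes at 2067, 1929.8, 1924 and 1485 TPM, on 12572, 12642, 12199 and 12377 counts (chromosome 17, 81833492 to 81835050, hg38). P4HB, a disulfide isomerase gene that lies next to it (chromosome 17, 81843159 to 81860535), was at 627, 597, 682 and 715 TPM. Where in PPP1R27 the fragments align cannot be read from a count per gene.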
